A study of Mus musculus with 7 samples.

Results

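Integrins are adhesion receptors made of 1 alpha and 1 beta chain, each from its own gene. The 10 genes described here are those of the leukocyte and matrix-binding integrins known from microglia and other myeloid cells: the alpha chains Itgax, Itgam, Itgal, Itga4, Itga6 and Itgav, and the beta chains Itgb2, Itgb1, Itgb3 and Itgb5. They were chosen by gene symbol, and all 10 were found among the 55401 genes of the count table. As background, Itgb2 encodes the beta2 chain (CD18), found on leukocytes only. It pairs with Itgam (CD11b) as complement receptor CR3, with Itgax (CD11c) as complement receptor CR4 and with Itgal (CD11a) as LFA-1. Itgb1 pairs with Itga4 and Itga6, and Itgb3 and Itgb5 pair with Itgav. In the brain, CD11c is best known as a marker of a subset of microglia seen in development, in demyelination and around amyloid.

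RNA was sequenced from microglia of the dorsal hippocampus of C57BL/6 mice aged 6 to 8 weeks, which the series title calls male. AAV-RAM-Cre was given to all mice, by injection into the dentate gyrus. RAM is a synthetic promoter that responds to neuronal activity, so that Cre is made in neurons active during an experience (engram cells). The EYFP group (4 libraries) also received AAV-Dio-EYFP, which gives a fluorescent protein in Cre-bearing cells, and the ATG7 group (3 libraries) received AAV-Dio-Atg7-Flag, which gives a tagged autophagy protein there. The comparison addresses how microglia differ when ATG7 is raised in the engram neurons. Microglia were taken with magnetic beads against CD11b, the protein of Itgam, so that the presence of Itgam and of its partner Itgb2 was selected for and is not a result. The labels do not say whether a library is 1 mouse or a pool, and p-values therefore measure the spread between these libraries, which may in part be technical.

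Library totals ranged from 35934210 to 55217119 counts. Values are CPM, the counts scaled to a common library size, here with factors from trimmed means of M values (TMM), and a count of 3 came to between 0.0546 and 0.0820 CPM. All 10 integrin genes lay far above that floor, from 267 counts for Itgal in EYFP 3 to 83257 counts for Itgb5 in ATG7 2. The 8 microglial markers summed to between 20490 and 24876 CPM in EYFP and between 20259 and 24832 CPM in ATG7, and none of them passed the test. Choroid plexus markers summed to more than the microglial ones in every library, from 54449 to 71787 CPM in EYFP and from 46099 to 60783 CPM in ATG7. All 6 of them had a negative log2 fold change of ATG7 over EYFP, with a median of -0.26, and none passed the test. EYFP 3 had 938.5 CPM of Xist, the transcript of the inactive X chromosome, against at most 0.574 CPM in the other 6 libraries, which goes against its label as male. In bulk RNA, more cells of a type and more RNA per cell cannot be told apart.

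Itgax and Itgam lie next to each other on mouse chromosome 7, and their promoters are printed because one gene rose and the other did not. Each is the stretch before the transcription start in the RefSeq table for GRCm38.p6, on the plus strand: chr7:128129300-128129549 for Itgax and chr7:128062390-128062639 for Itgam. Capitals mark GAGGAA, searched on both strands, a strict form of the sequence bound by PU.1, a transcription factor of myeloid cells. Shorter or looser forms of that sequence were not searched and are not marked.
Itgax: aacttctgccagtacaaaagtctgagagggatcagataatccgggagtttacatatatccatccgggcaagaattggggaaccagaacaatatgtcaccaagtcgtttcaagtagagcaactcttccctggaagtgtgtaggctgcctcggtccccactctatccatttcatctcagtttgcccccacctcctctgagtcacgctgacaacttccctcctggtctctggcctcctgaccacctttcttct
Itgam: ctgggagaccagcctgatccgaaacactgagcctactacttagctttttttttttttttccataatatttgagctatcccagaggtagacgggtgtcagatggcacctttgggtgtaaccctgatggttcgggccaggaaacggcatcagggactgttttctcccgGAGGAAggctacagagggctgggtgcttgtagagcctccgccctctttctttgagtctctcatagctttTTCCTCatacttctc
The Itgam window holds 2 matches, at positions -84 to -79 and, on the minus strand, -15 to -10, counted back from the base before the start. The Itgax window holds 0 matches to these letters. GAGGAA occurs on either strand in 23.1% of the 27025 promoter windows of this length. Neither window holds a match to an interferon element (GAAA, any 2 bases, GAAA), present in 3.04% of windows, or to the STAT element TTCNNNGAA, present in 7.18%, both searched on both strands. Of the other members whose promoters were read, Itgav has 2 matches to GAGGAA, Itgb1 has 1, and Itga4 and Itgb5 have 0 like Itgax. The promoters of Itgal, Itgb2, Itga6 and Itgb3 were not used here. Whether any match bears on the difference between groups was not tested.

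Among the 10 integrin genes, Itgax (ENSMUSG00000030789, chromosome 7, 128129547 to 128150657, plus strand, GRCm38) rose in ATG7 and was the 1 gene that passed the test. The test was the quasi-likelihood test of edgeR over 19199 genes, with a Benjamini-Hochberg adjusted p under 0.05. Over all genes tested 0.755% passed in either direction, 0.688% passed as higher and 0.0677% as lower in ATG7, against 1 and 0 of the 10 genes. At an unadjusted p under 0.05 there were 4 of the 10 genes (Itgax, Itgal, Itgb2 and Itgb5), against 2300 of the 19199 (12%). The median log2 fold change of the 10 genes was 0.13, and that of all genes tested was -0.0037. The genes were chosen with earlier results of these libraries known, so these counts describe them and do not set them apart.

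Itgax stood at 39.7, 33.0, 26.4 and 37.6 CPM in EYFP 1 to 4 and at 71.5, 93.4 and 73.4 CPM in ATG7 1 to 3. The lowest ATG7 library lay well above the highest EYFP library, and the groups did not overlap. EYFP 3 was the lowest of the EYFP libraries and ATG7 2 the highest of all 7. The fitted difference was 2.32-fold, with a 95% interval from 1.87 to 2.89 (log2 fold change 1.22, SE 0.140, edgeR adjusted p = 0.00705). By the exact permutation test on log2 CPM, two-sided with 35 possible assignments, p was 0.0286, the smallest this design allows. Without EYFP 3, the library with Xist, the log2 fold change was 1.11 (edgeR adjusted p = 0.00292). With the choroid plexus score as a covariate it was 1.16 with an SE of 0.207, and the adjusted p was 0.170, so that the call was lost while the size was nearly kept.

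**Figure D1:**
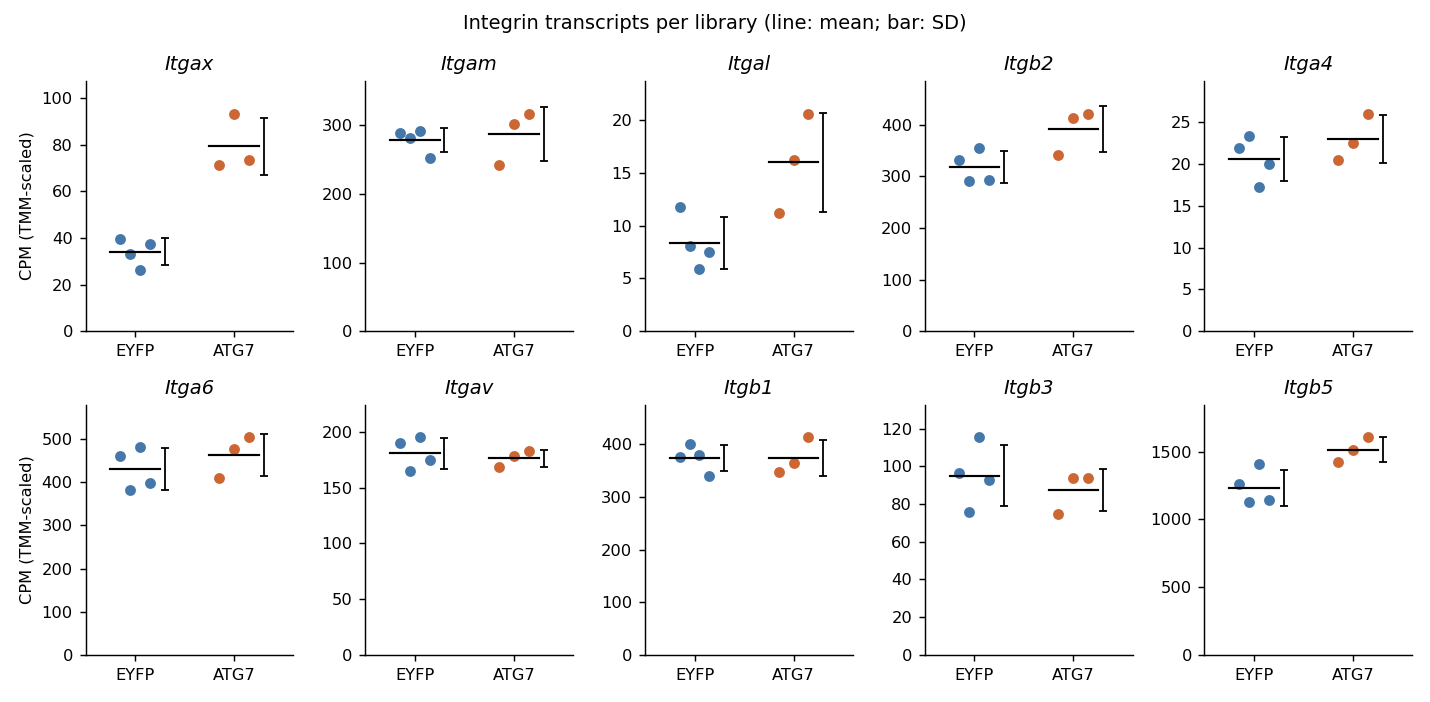
CPM of the 10 integrin genes in each library (y axis, from 0, a scale for each gene), for 4 EYFP libraries (blue) and 3 ATG7 libraries (orange); the line is the group mean and the bar beside it the SD. Itgax lies between 26.4 and 39.7 CPM in EYFP and between 71.5 and 93.4 CPM in ATG7, while for 8 of the other 9 genes the groups overlap and for Itgb5 they are parted by a narrow gap.

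Dendritic cells also carry CD11c, so their markers were read beside Itgax. Of 7 dendritic cell markers, 1 passed as higher in ATG7: Ccr7, a chemokine receptor of migrating dendritic cells, with a log2 fold change of 1.76 (edgeR adjusted p = 0.0182), from 1.22 CPM to 4.14 CPM in the group means. This is 1 of 7, against 0.688% of all genes tested, and all 7 had a positive log2 fold change, with a median of 0.24. The other 6 did not pass, among them Flt3, Zbtb46, Xcr1 and Clec9a, which are used as markers of conventional dendritic cells or of a subset of them. The 7 markers summed to between 44.1 and 50.04 CPM in EYFP and between 49.1 and 65.7 CPM in ATG7, and none was listed at 0 in all libraries. Clec9a stood between 0.421 and 1.64 CPM in EYFP and between 1.07 and 1.76 CPM in ATG7. The part of dendritic cells in the difference of Itgax was not tested.

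Itgam (ENSMUSG00000030786, chromosome 7, 128062640 to 128118491, plus strand) encodes the alpha chain of CR3 and is the neighbour of Itgax. It stood at 288.8, 280.5, 291.6 and 252.7 CPM in EYFP 1 to 4 and at 242.1, 300.9 and 316.6 CPM in ATG7 1 to 3. ATG7 1 was the lowest of the 7 libraries and ATG7 3 the highest, and the groups overlapped throughout. The fitted ratio was 1.03, with a 95% interval from 0.882 to 1.201 (edgeR adjusted p = 0.919). Its sign was not stable: the log2 fold change was 0.042, and -0.066 with the choroid plexus covariate.

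Itgal (ENSMUSG00000030830, chromosome 7, 127296260 to 127335138), the alpha chain of LFA-1, is best known from lymphocytes. It stood at 11.8, 8.07, 5.92 and 7.51 CPM in EYFP 1 to 4 and at 11.2, 16.2 and 20.6 CPM in ATG7 1 to 3. ATG7 2 and 3 lay above every EYFP library, whereas ATG7 1 lay just below EYFP 1. Its difference of 0.95 on the log2 scale (SE 0.247) did not pass (edgeR adjusted p = 0.152); it passed without EYFP 1 (1.16, edgeR adjusted p = 0.0309) and by DESeq2 (adjusted p = 0.00405). Markers of T and NK cells were read beside it. None of the 10 passed by edgeR, although all 10 had a positive log2 fold change, with a median of 1.44, and 6 of the 10 did not overlap between groups, against 6.33% of all genes tested that lay wholly higher in ATG7. At an unadjusted p under 0.05 there were 6, against 12% of all genes. DESeq2 called 4 of them as higher (Cd3d, Cd8a, Trac and Nkg7), against 2.30% of the 17566 genes to which it gave an adjusted p. They summed to between 8.91 and 14.7 CPM in EYFP and between 16.04 and 30.2 CPM in ATG7, with the highest sum in ATG7 3, which also had the highest Itgal. None was listed at 0 in all libraries, and Cd3e, a chain of the T cell receptor complex, stood between 0.177 and 0.540 CPM in EYFP and between 0.625 and 1.66 CPM in ATG7. Monocytes also carry CD11b and come with these beads. Of 5 monocyte markers none passed by edgeR, and 2 had an unadjusted p under 0.05, against 12% of all genes. Their log2 fold changes were mixed, 2 positive and 3 negative, with a median of -0.026. Plac8 averaged 3.22 CPM in EYFP and 8.78 CPM in ATG7 without overlap (edgeR adjusted p = 0.128, DESeq2 adjusted p = 0.000703). Ly6c2, which marks classical monocytes, averaged 2.75 CPM and 7.63 CPM with overlap (edgeR adjusted p = 0.330), and Ccr2, their chemokine receptor, 20.7 CPM and 20.3 CPM. The 5 markers summed to between 30.8 and 36.7 CPM in EYFP and between 30.4 and 57.1 CPM in ATG7, again highest in ATG7 3, and none was listed at 0 in all libraries. Of 5 neutrophil markers none passed by edgeR, with 2 positive and 3 negative log2 fold changes. They summed to between 26.8 and 64.8 CPM in EYFP and to 16.5, 19.5 and 101.0 CPM in ATG7 1 to 3. Markers of endothelial cells and pericytes were also highest in ATG7 3, at 883.5 CPM. The part of T, NK, monocyte and neutrophil markers in the Itgal and Itgax values was not tested.

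Itgb2 (ENSMUSG00000000290, chromosome 10, 77530252 to 77565708), the beta chain that these 3 alpha chains share, stood at 331.3, 290.4, 354.1 and 292.96 CPM in EYFP 1 to 4. In ATG7 1 to 3 it stood at 340.8, 413.0 and 421.2 CPM. ATG7 2 and 3 were above all EYFP libraries, and ATG7 1 was below EYFP 3. The fitted ratio was 1.23, with a 95% interval from 1.06 to 1.45, and did not pass after adjustment (edgeR adjusted p = 0.262).

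A gene that passes beside one that does not is not shown to differ from it, and the ratio of Itgax to each of the other 3 beta2 subunits was therefore tested within libraries. The log2 ratio of Itgax to Itgam was -2.86, -3.08, -3.46 and -2.75 in the EYFP libraries 1 to 4. In the ATG7 libraries 1 to 3 it was -1.76, -1.69 and -2.11. Every ATG7 library was above every EYFP library, by 1.19 in the means (exact permutation p = 0.0286, two-sided, and 0.0429 after Benjamini-Hochberg adjustment over the 3 ratios). The log2 ratio of Itgax to Itgb2 was -3.22 ± 0.353 across the EYFP libraries (SD, n = 4) and -2.31 ± 0.194 across those of ATG7 (SD, n = 3), again without overlap (exact permutation p = 0.0286, adjusted 0.0429). Without EYFP 3 that difference was 0.74 rather than 0.92, and with 3 libraries against 3 the exact test cannot go below 0.10. The ratio of Itgax to Itgal was 2.06 ± 0.239 across the EYFP libraries (SD, n = 4) and 2.34 ± 0.448 across those of ATG7 (SD, n = 3), and the groups overlapped (exact permutation p = 0.286, adjusted 0.286). Itgax thus differed from Itgam and from Itgb2 in how far it moved, and was not shown to differ from Itgal. Because the genes were chosen with earlier results of these libraries known, these p-values describe the ratios and are not independent support.

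**Figure D2:**
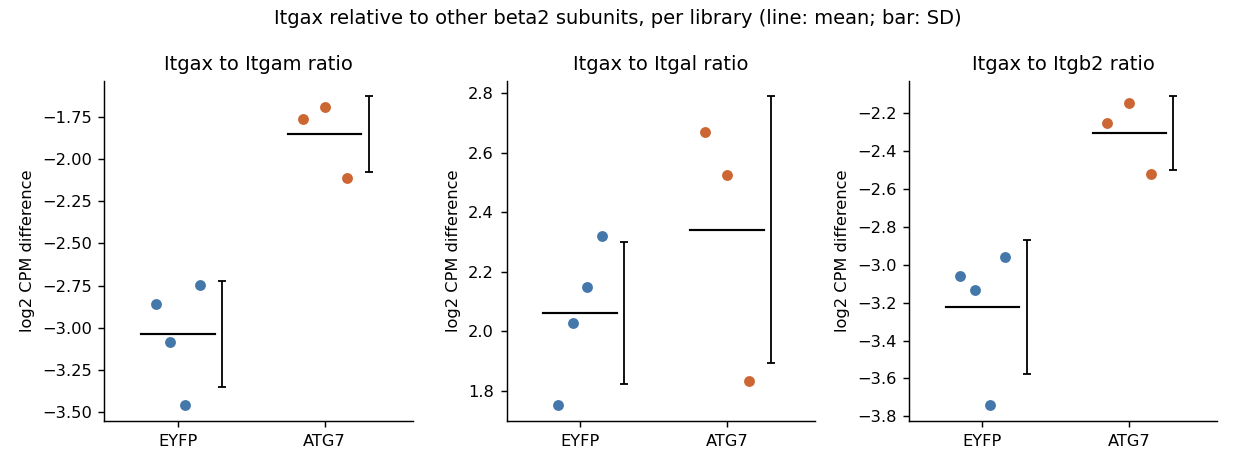
Log2 CPM of Itgax minus log2 CPM of Itgam, Itgal or Itgb2 in each library (y axis, prior count 2, axes not from 0), for 4 EYFP (blue) and 3 ATG7 (orange) libraries; line, mean; bar, SD. The ratios to Itgam and Itgb2 are higher in all 3 ATG7 libraries than in any EYFP library, and the ratio to Itgal overlaps between the groups.

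Levels of different genes were compared only per length, as CPM per kilobase of annotated exon. Over the 7 libraries the mean level was 381.2 for Itgb5, 114.4 for Itgb2, 91.7 for Itgb1, 56.1 for Itgam, 49.3 for Itga6, 16.7 for Itgav, 15.6 for Itgb3, 11.2 for Itgax, 1.77 for Itgal and 1.55 for Itga4. This order rests in part on the length used. Per kilobase of the longest transcript the mean level of Itga6 was 103.2 CPM, above Itgb1 at 98.1 and Itgam at 60.2, and that of Itgav was 25.4. Per kilobase of annotated exon, the ranges of neighbours in the order overlapped for Itgb2 and Itgb1, for Itgam and Itga6, for Itgav and Itgb3, for Itgb3 and Itgax, and for Itgal and Itga4. At 5.50 to 8.27 CPM per kilobase of exon in EYFP, Itgax lay below every value of Itgav and Itgb3. At 14.9 and 15.3 in ATG7 1 and 3 it lay within the ATG7 range of Itgb3 and below that of Itgav, and at 19.5 in ATG7 2 it lay above every ATG7 value of both. Per kilobase of the longest transcript, Itgax in ATG7 (17.7 to 23.1) lay above the ATG7 values of Itgb3 (12.9 to 16.2) and below those of Itgav (23.8 to 25.9), so its place beside these genes depends on the length. For Itgam a further limit applies, because 68.7% of its exon bases also belong to exons of Gm49368, an annotated gene on the same strand that runs through Itgam toward Itgax. How the authors treated reads that fall in 2 genes is not given in the sources used here. Gm49368 itself was listed at 4 to 9 counts per library. Over the 1574 unshared bases alone, a measure added after seeing the data, the Itgam level would be 179.1 CPM per kilobase, above Itgb2. Differences between groups within a gene do not depend on the length.

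Of the transcripts of the 4 alpha chains that pair with beta2, per length, Itgax made up 12.2%, 10.7%, 8.53% and 13.2% in the EYFP libraries 1 to 4. In the ATG7 libraries 1 to 3 it made up 22.9%, 23.8% and 18.7%. Itgam made up most of the rest, 86.8% ± 2.45 across the EYFP libraries (SD, n = 4) and 75.0% ± 2.15 across those of ATG7 (SD, n = 3). Itgal made up 1.97% ± 0.514 across the EYFP libraries (SD, n = 4) and 3.16% ± 0.622 across those of ATG7 (SD, n = 3). Itgad, the alpha D chain known from macrophages of the spleen, was at or near the floor, between 0.0887 and 0.355 CPM. With unshared exon lengths the share of Itgax was 3.86% in EYFP and 8.27% in ATG7, so the shares themselves rest on the length chosen for Itgam.

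The remaining alpha chains did not pass. Itga4 (ENSMUSG00000027009, chromosome 2, 79255426 to 79333123), the chain that binds VCAM1 and fibronectin and serves leukocyte entry, stood between 17.2 and 23.4 CPM in EYFP and between 20.4 and 26.0 CPM in ATG7. Its fitted ratio was 1.12, with a 95% interval from 0.930 to 1.34 (edgeR adjusted p = 0.670). Itga6 (ENSMUSG00000027111, chromosome 2, 71745616 to 71858416), a laminin receptor chain that endothelial cells also carry, ranged from 381.1 to 482.7 CPM in EYFP and from 409.4 to 504.1 CPM in ATG7. The interval of its ratio ran from 0.913 to 1.27 (edgeR adjusted p = 0.769), and the sign of its log2 fold change turned from 0.11 to -0.059 with the choroid plexus covariate. Markers of endothelial cells and pericytes summed to between 373.6 and 643.0 CPM in EYFP and between 496.8 and 883.5 CPM in ATG7. None of the 6 passed by edgeR or DESeq2, and 1 had an unadjusted p under 0.05, against 12% of all genes tested. All 6 had a positive log2 fold change, with a median of 0.30. Itgav (ENSMUSG00000027087, chromosome 2, 83724397 to 83806916), a receptor chain for vitronectin and MFG-E8, lay at 164.7 to 195.2 CPM in EYFP and 168.2 to 182.8 CPM in ATG7, with the ATG7 range inside that of EYFP. Its fitted ratio had an interval from 0.862 to 1.10 (edgeR adjusted p = 0.905).

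Among the beta chains, Itgb5 (ENSMUSG00000022817, chromosome 16, 33829665 to 33949338) pairs with Itgav and is counted among the genes enriched in resting microglia. It stood at 1259, 1125, 1412 and 1143 CPM in EYFP 1 to 4 and at 1421, 1515 and 1605 CPM in ATG7 1 to 3. The groups did not overlap, although EYFP 3 came close to ATG7 1. The fitted ratio of 1.23 had an interval from 1.05 to 1.43 and did not pass after adjustment (edgeR adjusted p = 0.271). With Itgax, Itgb5 made 2 of the 10 genes whose groups did not overlap, against 11.2% of all genes tested.

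Itgb1 (ENSMUSG00000025809, chromosome 8, 128685654 to 128733200), the most widely used beta chain, stood at 376.4, 399.6, 379.4 and 340.01 CPM in EYFP 1 to 4 and at 347.2, 363.8 and 413.1 CPM in ATG7 1 to 3. The ratio was 1.00, with an interval from 0.874 to 1.149 (edgeR adjusted p = 0.993), and the sign of its log2 fold change turned with each other scaling tried. Itgb3 (ENSMUSG00000020689, chromosome 11, 104608000 to 104670476) is the other partner of Itgav and is also a platelet integrin with Itga2b. It stood between 75.7 and 115.4 CPM in EYFP and between 74.7 and 93.9 CPM in ATG7. The ratio of 0.921 had an interval from 0.751 to 1.13 (edgeR adjusted p = 0.794). Of 5 platelet markers, Gp1bb was listed at 0 in all libraries and the sum was 21.3 to 26.5 CPM in EYFP and 14.7 to 20.4 CPM in ATG7; its part in Itgb3 was not tested.

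**Figure D3:**
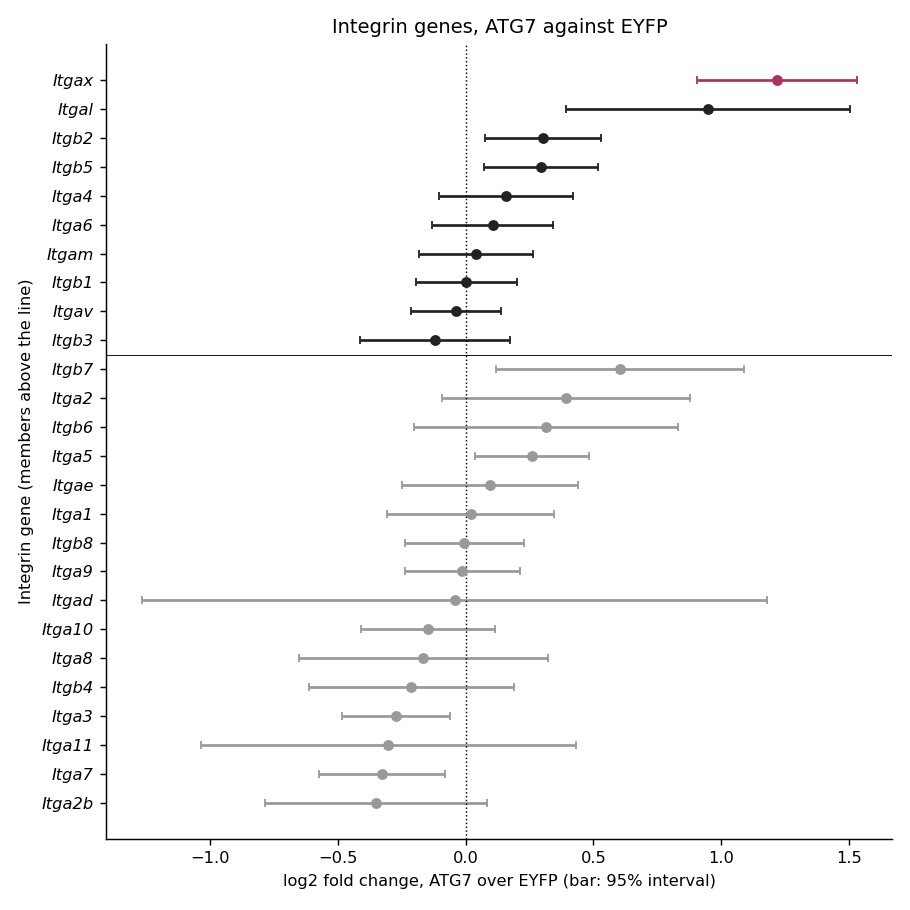
Log2 fold change of ATG7 over EYFP (x axis, edgeR, bar for the 95% interval) for the 10 integrin genes described (above the line) and 16 other integrin genes (grey); red marks an adjusted p under 0.05. Itgax at 1.22 is the gene in red, followed by Itgal at 0.95, and the intervals of the other 8 members lie between -0.41 and 0.53.

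The integrin family beyond these 10 genes was read from a list of 16 genes. None of the 16 passed by edgeR or by DESeq2, and 4 had an unadjusted p under 0.05, against 12% of all genes tested. The median log2 fold change was -0.028, with 6 positive and 10 negative. The smallest p belonged to Itga7, a laminin receptor chain of muscle and vessel walls, at 12.8 ± 1.36 CPM across the EYFP libraries (SD, n = 4) and 10.2 ± 0.578 CPM across those of ATG7 (SD, n = 3) (edgeR adjusted p = 0.264). Itgb7, the other beta chain that pairs with Itga4 and is known from gut-homing lymphocytes, was picked out after its values were seen. It averaged 5.09 ± 0.473 CPM across the EYFP libraries (SD, n = 4) and stood at 4.997, 7.43 and 10.8 CPM in ATG7 1 to 3, with the highest value again in ATG7 3 (edgeR adjusted p = 0.292).

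Ligands and counter-receptors were read from a list of 31 genes, of which 27 were tested and 4 (Icam4, Fga, Fgb and Fgg) were listed at 0 in every library. The list had 1 gene that passed as higher in ATG7 and 0 lower, against 0.688% and 0.0677% of all genes tested, with a median log2 fold change of 0.084. That gene was C3, whose cleavage product iC3b is bound by CR3 and CR4. C3 stood at 20.7, 16.5, 11.5 and 17.7 CPM in EYFP 1 to 4 and at 54.1, 65.8 and 66.7 CPM in ATG7 1 to 3, and like Itgax it was lowest in EYFP 3 (log2 fold change 1.91, edgeR adjusted p = 0.00251). With the choroid plexus covariate it was 1.86 and the adjusted p was 0.107. Icam1, the main ligand of LFA-1, was chosen after its values were seen. Its means were 102.3 ± 10.3 CPM across the EYFP libraries (SD, n = 4) and 127.4 ± 18.3 CPM across those of ATG7 (SD, n = 3) (edgeR adjusted p = 0.270). Spp1, or osteopontin, a ligand of several integrins, averaged 13.5 ± 2.96 CPM across the EYFP libraries (SD, n = 4) and 19.04 ± 3.89 CPM across those of ATG7 (SD, n = 3), with an adjusted p of 0.292 by edgeR, and was chosen in the same way.

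Inside the cell, talin and the kindlins switch integrins to their binding state, and Src family kinases and Syk carry the signal onward. Of the 35 activators, adaptors and kinases listed, all were tested and none passed by edgeR, while 8 had an unadjusted p under 0.05, against 12% of all genes. Their median log2 fold change was 0.12, with 27 positive and 8 negative. DESeq2 called 4 of them, all higher (Skap1, Fyb, Parvb and Fgr), against 3.26% of all genes in either direction and 2.30% as higher. Skap1, an adaptor best known from T cells, had the smallest p, at 0.196 ± 0.146 CPM across the EYFP libraries (SD, n = 4) and 0.845 ± 0.334 CPM across those of ATG7 (SD, n = 3) (edgeR adjusted p = 0.0970). It was highest in ATG7 3, at 1.23 CPM, the library with the highest sum of T and NK cell markers. The core switch did not pass: the log2 fold change was 0.14 for Tln1, or talin (edgeR adjusted p = 0.606), and for Fermt3, the kindlin of blood cells, it was 0.073 (edgeR adjusted p = 0.824), both named after their values were seen.

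**Figure D4:**
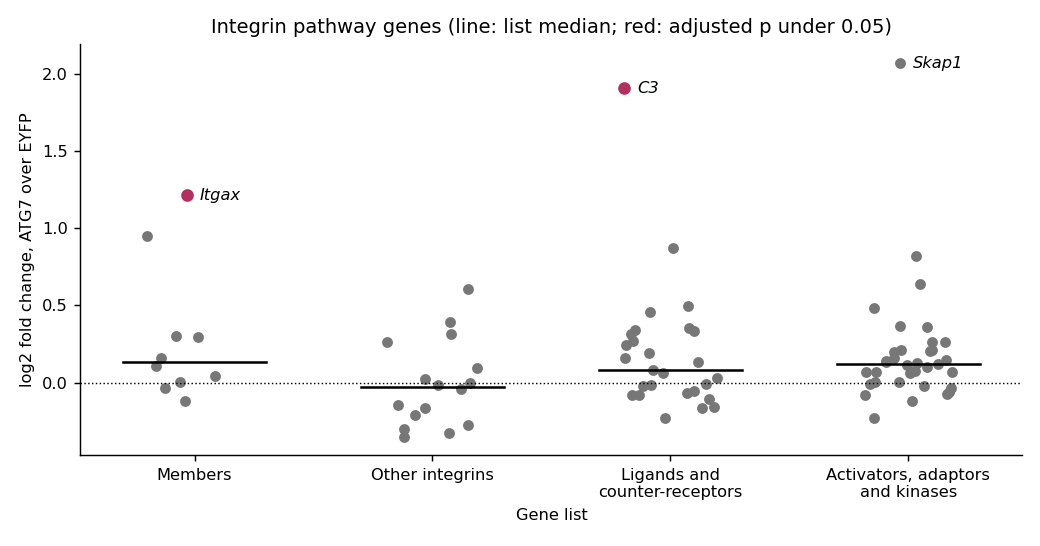
Log2 fold change of ATG7 over EYFP (y axis) for each tested gene of 4 lists (x axis; points spread sideways for legibility); the line is the list median and red marks an adjusted p under 0.05. Itgax at 1.22 and C3 at 1.91 are in red, Skap1 at 2.07 is not, and the 4 medians lie between -0.028 and 0.13.

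Around Itgax on chromosome 7, 34 other annotated genes lay wholly within 250 kilobases of it, and 16 of them were tested. None of the 16 passed by edgeR or by DESeq2, and 1 had an unadjusted p under 0.05, against 12% of all genes tested. Their median log2 fold change was 0.051. That 1 gene was Cox6a2, a subunit of cytochrome oxidase known from muscle, at 0.928 ± 0.266 CPM across the EYFP libraries (SD, n = 4) and 1.54 ± 0.273 CPM across those of ATG7 (SD, n = 3) (edgeR adjusted p = 0.306). Among the neighbours, Itgax was the gene that passed, and both adjoining beta2 alpha chain genes, Itgam and Itgad, did not. Itgad had only 4 to 13 counts per library, and its log2 interval ran from -1.26 to 1.18, so that its not passing says little.

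**Figure D5:**
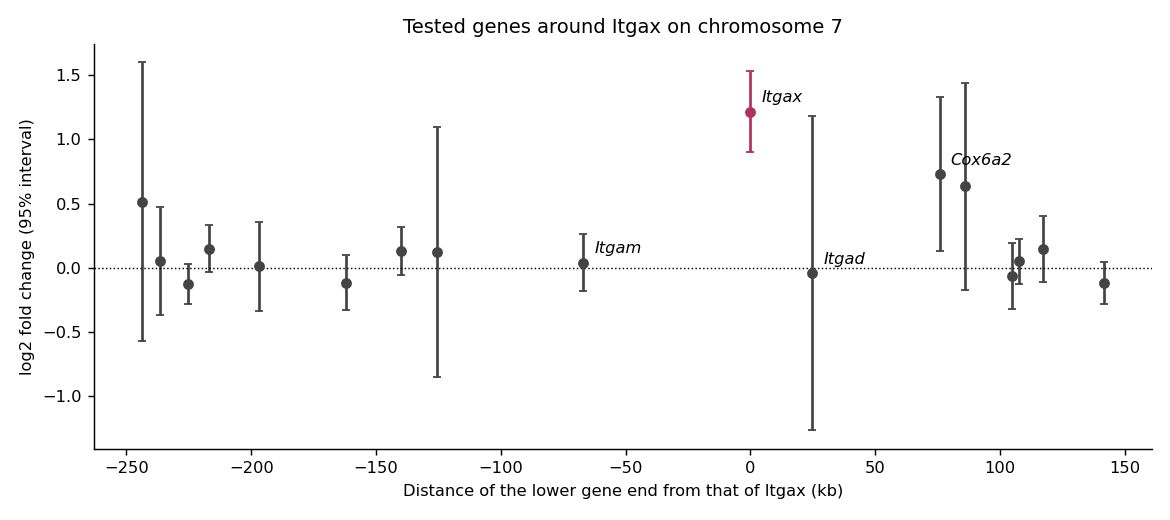
Log2 fold change with its 95% interval (y axis) of Itgax (red) and the 16 tested genes around it (dark) by the distance of each gene's lower end from that of Itgax in kilobases (x axis). Itgax stands at 1.22, Itgam at 0.042 and Itgad at -0.043, with wide intervals for the genes of few counts.

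Among 15041 other genes with a mean of at least 1 CPM, the 5 whose log2 CPM followed Itgax most closely over the 7 libraries were Gm9888, Ch25h, Adap1, Ly9 and C3. Pearson's r ran from 0.998 for Gm9888 to 0.987 for C3. These libraries form 2 groups that Itgax separates, so r reflects the group difference as well as the order within groups, and it is given as a description. The 5 genes were picked for following Itgax in these same libraries. A like group difference or library order in them follows in large part from that choice and is no separate result. Ch25h, the enzyme that makes 25-hydroxycholesterol, stood at 2.16, 1.72, 1.49 and 2.26 CPM in EYFP 1 to 4 and at 5.396, 7.08 and 4.67 CPM in ATG7 1 to 3. It rose by 1.59 on the log2 scale (edgeR adjusted p = 0.00982), with ATG7 2 the highest library and EYFP 3 the lowest. Its call was lost without ATG7 2 (1.402, edgeR adjusted p = 0.0537) and with the choroid plexus covariate (1.52, edgeR adjusted p = 0.0746). Ly9, a receptor of the SLAM family, rose by 1.01 (edgeR adjusted p = 0.00251). Adap1 had an edgeR adjusted p of 0.05001, just over the threshold. Gm9888 is annotated as an antisense transcript, whose reads cannot be told from those of the other strand where strand was not used, and its edgeR adjusted p was 0.204. Among the other integrin genes of the 10, Itgal was nearest to Itgax (r = 0.869), but it ranked only 420 among the 15041 genes. Itgb2 (0.697) ranked 1359, Itgb5 (0.675) ranked 1526, and Itgam (0.133) ranked 6043.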

How the data were processed

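RNA-seq counts were analysed for 7 libraries of CD11b-enriched microglia, 4 EYFP and 3 ATG7, grouped by sample title. The authors deposited raw counts per gene, 55401 Ensembl identifiers in 7 columns, all matched to libraries by name. Per the submitters' processing notes, fastp 0.20.1, HISAT2 2.0.5 and featureCounts were used, with the builds mm10 and GRCm38. Strand setting, annotation release and treatment of shared reads are not given in the sources used here. The 37 mitochondrial genes were listed at 0. Symbols and exon lengths came from GENCODE M21 (GRCm38), which matched 55141 identifiers.

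Tests used edgeR 4.0.16 (R 4.3.3) and its quasi-likelihood method on the whole table, with TMM factors, filterByExpr and robust dispersion, leaving 19199 genes. Adjusted p-values are Benjamini-Hochberg over all of them, two-sided, at 0.05. SE is the absolute log2 fold change over the square root of F, and intervals are 95%. Log2 CPM used a prior count of 2. The code was tested on simulated data. Chi-square per degree of freedom between libraries of a group was at least 19.2, above counting noise, so no pair was treated as repeat deposits of 1 library; this does not show that they came from separate animals. Alternatives were other scalings and filters, DESeq2 1.42.0, limma-voom (limma 3.58.1), a replicate block, a choroid plexus covariate (mean log2 CPM of 6 markers) and leaving out each library.

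The members and gene lists were chosen with earlier results of these data known. Named genes are the 10 members and, in each other list, the passing genes (up to 4) or the one with the smallest p. Itgad, the 5 genes most correlated with Itgax, Atg7, Xist and Ttr complete the rule. Atg7 stood at 35.6 ± 1.68 CPM across the EYFP libraries (SD, n = 4) and 34.9 ± 2.76 CPM across those of ATG7 (SD, n = 3), and Ttr at 38948 and 34808 CPM. Atg7 was raised in neurons, so its level in microglia does not check the labels. Other genes named were chosen after their values were seen.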

Additional observations from a re-analysis of the deposited data

Results flagged for a closer look

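In the 4 EYFP libraries 26 values were checked for a library far from the rest of its group, and 2 had one. About 1 in 20 is flagged by chance. EYFP 3 had 938.5 CPM of Xist, against 0.327 to 0.574 CPM in EYFP 1, 2 and 4. Skap1 stood at 0.414 CPM (19 counts) in EYFP 2, against 0.111 to 0.137 CPM (5 counts each) in the other EYFP libraries. Without EYFP 2, Skap1 passed the edgeR test with a log2 fold change of 2.75 (adjusted p = 0.0378).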

How the results depend on the processing

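The log2 fold change of Itgax stayed between 1.08 and 1.30 over 16 alternatives, and it passed in 14 of them (adjusted p from 3.54e-13 to 0.170). It did not pass with the choroid plexus covariate (1.16) or with the replicate block (1.27, adjusted p = 0.0972). Leaving out each library gave 1.08 to 1.30, with adjusted p between 0.00292 and 0.0438. The number of genes that differed was 145 as reported, 572 by DESeq2, 297 with no filter, 16 with the choroid plexus covariate and 0 with the replicate block. It ranged from 28 to 277 with a library left out: 28 without ATG7 2, 30 without ATG7 3, 30 without EYFP 4, 94 without EYFP 2 and 277 without EYFP 1. Of the 10 integrin genes 2 passed by DESeq2 and without EYFP 1, and 0 with the covariate and with the block; with a library left out the number was 1 to 2. Of the ligands 0 passed with the covariate and with the block. Of the activators 4 passed by DESeq2, 3 with no filter and 0 to 1 with a library left out. The block had 0 calls over all genes, where 145 passed without it, and the same-numbered libraries were not paired by the labels: their deviations correlated at -0.061, -0.182 and 0.066. As differences within same-numbered pairs, the replicate block gave 1.28 for the Itgax to Itgam ratio and 1.01 for the Itgax to Itgb2 ratio (exact p = 0.25, the smallest that 3 pairs allow). With a library left out these ratios differed by 1.04 to 1.31 and by 0.74 to 1.03, and the exact test could not reach 0.05 at that size. The Itgax share of beta2 alpha chains was 3.86% in EYFP and 8.27% in ATG7 with unshared exon lengths. The sign turned for genes that did not pass. Itgam gave -0.066 with the covariate, -0.011 with the block and -0.042 to 0.15 with a library left out. Itga6 gave -0.059 and Ttr 0.031 with the covariate. Itgb1 gave -0.0022 by DESeq2, -0.013 with the covariate, -0.0026 with DESeq2 size factors, -0.018 with library size alone, -0.0058 with upper quartile factors, -0.0017 at a mean CPM of at least 1, -0.043 with the block and -0.078 to 0.056 with a library left out. Itgad gave 0.16 with the covariate, 0.047 with the block and -0.44 to 0.30 with a library left out, and Atg7 gave -0.083 to 0.035. The cause of these changes was not tested.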

Other observations

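Among the 171 genes of all lists read here, 4 had over 50% of their exon bases in exons of another annotated gene. Icam4, a ligand of beta2 integrins on red cells, and Gp1bb, a platelet receptor chain, were listed at 0 in every library, with all of the bases of Icam4 and 92.9% of those of Gp1bb shared. Ilk, the integrin-linked kinase that most cells express, had 89.7% shared and lay between 0.554 and 1.29 CPM. Itgam, with 68.7% shared, lay between 242.1 and 316.6 CPM. Gm49368, whose exons hold those shared bases of Itgam, was listed at 4 to 9 counts per library, against 9691 to 16535 for Itgam. Reads in these exons were thus hardly counted for Gm49368. Whether reads in shared exons were left out of the counts or given to 1 gene was not tested, since reads were not analysed here. The levels of these 4 genes carry that limit.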
